A study of Mus musculus with 3 samples.

Results

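Fam19a1 and Fam19a2 are the 2 genes described here, out of 1039 different genes named in 3 marker tables of nuclei from the mouse lateral septum. They were chosen by name, because they are listed there, and every row that names either gene was taken: 11 of 2750 rows, in 10 of 55 clusters. All nuclei came from 8 untreated male C57BL/6J littermates aged 3 months. Punches of the region were frozen, nuclei were sorted by their fluorescence, and 3 droplet libraries (10x Genomics) were prepared from pooled nuclei, so there is 1 group and no comparison between animals. Neighbouring tissue such as medial septum, cortex or striatum can be present, per the labels' protocols. By their names, the broad table covers all nuclei (25 clusters), the GABA table inhibitory neurons (22 subclusters) and the Sst table nuclei called after somatostatin (8 subclusters). Each cluster has 50 genes in its list, each with a log2 fold change of the cluster over the table's other nuclei and with detection, meaning the percentage of nuclei with at least some RNA of the gene, inside and outside the cluster. Number of nuclei, depth per nucleus and values per library are unknown, so no value below has a replicate error and no test was made. Both genes were chosen from these same tables, and a cluster set against the rest is no test of its own markers.

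The Fam19a genes, called Tafa genes in newer annotation, encode a family of small secreted proteins made mostly in the nervous system. They are distant relatives of chemokines, the signalling proteins best known for guiding immune cells, and share a pattern of cysteines that form disulphide bonds. Family members have been reported to bind neurexins, presynaptic adhesion proteins, and Fam19a1 protein to bind the receptor Gpr1. The lateral septum is a forebrain region of mainly inhibitory neurons between hippocampus and hypothalamus.

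Both genes are very long for the size of their product. Fam19a1 (ENSMUSG00000059187.12) lies on chromosome 6 from 96113154 to 96657198, plus strand, and Fam19a2 (ENSMUSG00000044071.8) on chromosome 10 from 123263996 to 123741204, plus strand (GRCm38, GENCODE M21). The spans are 544 kb and 477 kb. Fam19a1 has 5 exons in its transcript ENSMUST00000122120.7, with 402 coding bases including the stop codon, and its second intron alone measures 408 kb. Fam19a2 has 6 exons in ENSMUST00000050756.7, with 408, and its longest intron, the first, measures 165 kb. Exons make up 0.598% of the span of the Fam19a1 transcript and 0.915% of that of the Fam19a2 transcript, so an unspliced RNA of either gene is almost wholly intron sequence. Fam19a4, another family member, lies 174 kb beyond the end of Fam19a1 on the other strand.

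**Figure D1:**
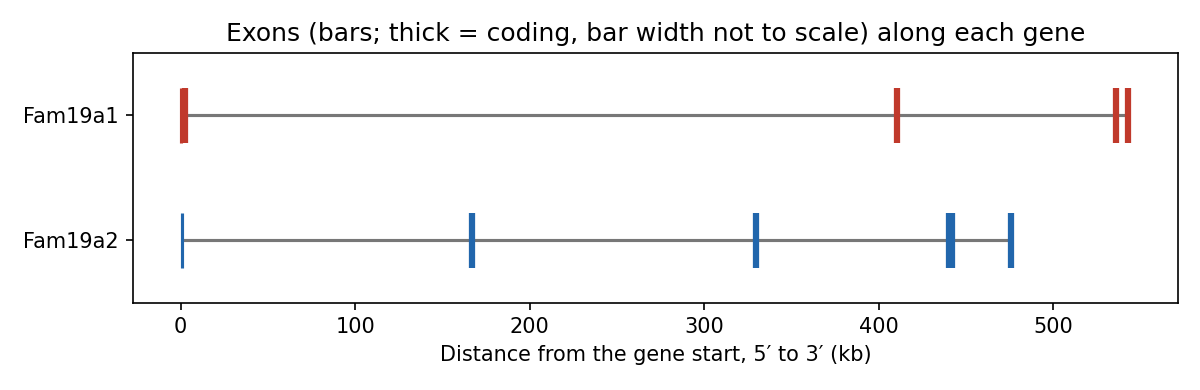
Exons of Fam19a1 and Fam19a2 by distance from the gene start in kb; bars mark exons, thick bars hold coding sequence, and bar width is not to scale, so exons a few kb apart merge. The second intron of Fam19a1 takes up 408 kb of its 544 kb.

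The coding stretches below are shown because they carry the feature that makes the pair a family. They run 5′ to 3′ from the first to the last of 10 TGT or TGC codons, which encode cysteine and are in capitals; they are reference sequence from GENCODE M21 transcripts on GRCm38, plus strand.
Fam19a1: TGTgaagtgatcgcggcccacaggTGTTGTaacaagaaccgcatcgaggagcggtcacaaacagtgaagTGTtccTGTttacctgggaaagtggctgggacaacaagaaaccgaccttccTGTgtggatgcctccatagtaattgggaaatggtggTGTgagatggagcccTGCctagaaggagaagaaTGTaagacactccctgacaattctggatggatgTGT
Fam19a2: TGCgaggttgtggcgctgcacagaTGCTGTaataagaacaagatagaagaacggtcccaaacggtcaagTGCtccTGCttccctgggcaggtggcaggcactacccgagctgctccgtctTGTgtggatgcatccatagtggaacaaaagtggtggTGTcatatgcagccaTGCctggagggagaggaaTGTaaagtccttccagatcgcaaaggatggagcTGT
Each stretch has 75 codons and 225 bases, at codons 44 to 118 of Fam19a1 and 48 to 122 of Fam19a2. The 10 cysteine codons stand at the same places in both without any gap. The whole coding sequence has 12 cysteine codons in Fam19a1 and 10 in Fam19a2, so some of those of Fam19a1 lie outside the stretch shown. Of the 225 bases 156 are the same (69.3%), and of the 75 codons 28 are identical.

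Fam19a1 was listed for 3 broad clusters, 2 GABA subclusters and 1 Sst subcluster, and Fam19a2 for 1, 3 and 1. Of all features behind the authors' adjusted p-values, 4.05% were listed for at least 1 broad cluster, 3.52% for at least 1 GABA subcluster and 1.95% for at least 1 Sst subcluster. Listing for at least 2 clusters applied to 1.39% of features in the broad, 1.29% in the GABA and 0.232% in the Sst table, and listing for at least 3 to 0.437%, 0.439% and 0.0276%. Since the pair was chosen for being listed, nothing is read from these shares. Both genes were listed together for 1 broad cluster, 0 GABA subclusters and 0 Sst subclusters.

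Detection inside was high in each row of Fam19a1 and spread widely over the rows of Fam19a2. Over its 6 rows in the authors' deposited table, detection of Fam19a1 ran from 86.4% to 100% inside and from 26.3% to 37.0% outside, with a gap over 50 points in 5 of the 6, some of which are near repeats between tables. Over its 5 rows in the authors' deposited table, detection of Fam19a2 ran from 44.2% to 96.8% inside and from 19.1% to 30.5% outside, with a gap over 50 points in 1 of the 5. Outside the listing clusters detection was thus not near 0 for either gene. No cell type known to lack the genes can be read from the tables, so the part of any detection due to free RNA was not tested.

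**Figure D2:**
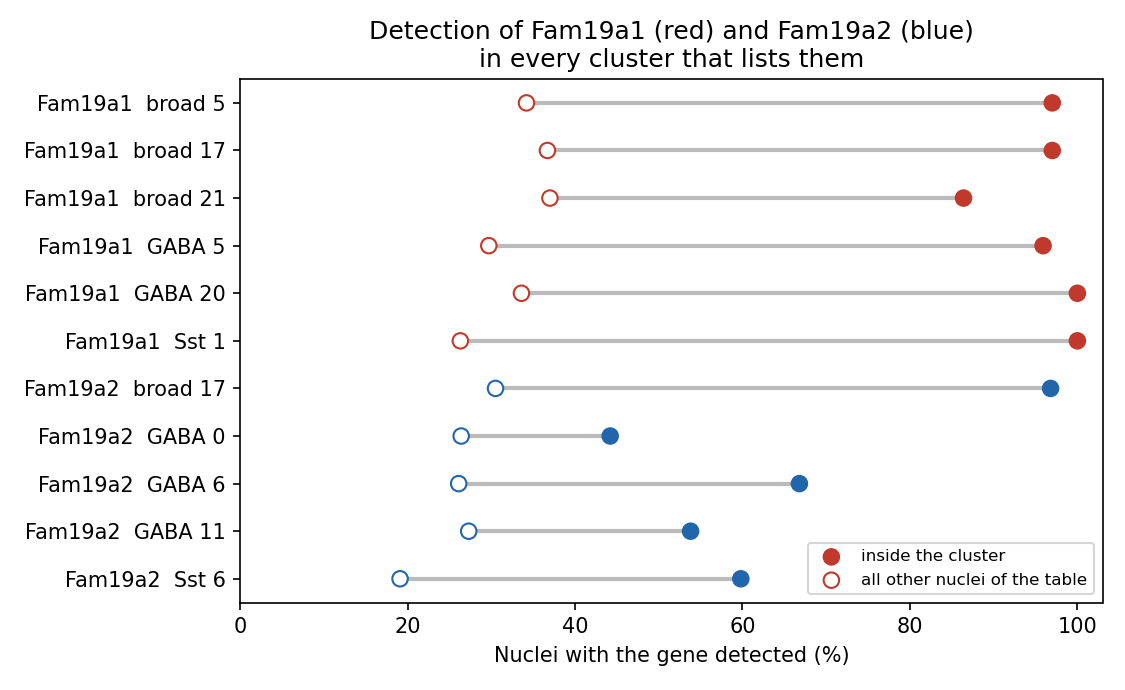
Percentage of nuclei with Fam19a1 (red) or Fam19a2 (blue) detected, inside each listing cluster (filled) and in all other nuclei of the same table (open). The Fam19a1 rows reach 86.4% or more inside, while 4 of the 5 Fam19a2 rows stay at or below 66.8%.

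The broad cluster with the highest Fam19a1 fold was cluster 5, which the GABA table resolves again as subcluster 5. Fam19a1 had a log2 fold change of 3.70 in broad cluster 5 in the authors' deposited table, and was found in 97.0% of nuclei inside and 34.2% outside. It stood first of 50 there by fold and by detection gap (62.8 points). Its row was also first in p-value order, but its p-value was at the smallest stored value, so that place may be a tie. In GABA subcluster 5 the authors' deposited table gave a log2 fold change of 3.84 and detection of 95.9% against 29.7%, second by fold after the transcription factor gene Lhx2 and first by detection gap. The 2 clusters shared 47 of 50 listed genes, with a median difference of 1.5 points in detection, and are not counted as separate results. Next to Fam19a1 in GABA subcluster 5 stood the transcription factor gene Dach2 (3.77, 56.4% against 10.6%), the urocortin receptor gene Crhr2 (3.26, 20.2% against 2.3%), the phospholipase D family gene Pld5 (2.17, 92.5% against 41.6%), Thsd7b (1.95, 35.1% against 13.2%) and Stac2, which encodes an adaptor of calcium channels (1.89, 52.6% against 19.9%), in the authors' deposited table. Of 11 lateral septum neuron markers cluster 5 listed 1, Crhr2, and it is left unnamed.

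GABA subcluster 20 and Sst subcluster 1 had Fam19a1 in every nucleus at the 3 decimals given. In GABA subcluster 20 the log2 fold change of Fam19a1 was 4.06, with 100% against 33.6%, in the authors' deposited table. In Sst subcluster 1 it was 5.77, with 100% against 26.3%, in the authors' deposited table, and the gap of 73.7 points was larger than that of any other of the 400 rows of the Sst table. The 2 subclusters shared 39 of 50 genes with a median difference of 0.3 points in detection, and they too are not counted as separate results. The larger fold in the Sst table went with lower detection among the other nuclei there. The peptide genes beside Fam19a1 in GABA subcluster 20 were neurotensin, Nts (4.21, 34.2% against 2.2%), Cartpt (3.20, 16.8% against 2.1%) and somatostatin, Sst (2.52, 63.8% against 13.5%), in the authors' deposited table. Its transcription factor genes were Zbtb20 (2.86, 92.6% against 35.9%) and Meis2 (1.56, 98.7% against 63.8%) in the authors' deposited table. With genes under 25% detection inside set apart, the other leading genes by fold were Stk31 (3.22, 51.0% against 8.4%) and Nebl, which encodes an actin-binding protein (2.74, 81.9% against 26.6%), in the authors' deposited table. In Sst subcluster 1 the next genes by the same rule, after Nts and Zbtb20, were Adgrg4, an adhesion receptor gene (3.02, 34.4% against 7.8%), and the zinc finger gene Zfp804b (2.62, 87.4% against 25.2%) in the authors' deposited table. Both subclusters listed 3 of 11 lateral septum markers (Nts, Sst, Meis2) and the interneuron marker Chodl, and Sst subcluster 1 the oligodendrocyte precursor marker Vcan; both are left unnamed.

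Fam19a1 was also listed for broad clusters 17 and 21, each of which lists a vesicular glutamate transporter gene. In cluster 21 the log2 fold change of Fam19a1 was 2.14, with detection of 86.4% against 37.0%, in the authors' deposited table. With genes under 25% detection inside set apart, the largest folds of that cluster were those of the zinc finger gene Bnc2 (6.79, 50% against 1.1%), the vesicular glutamate transporter gene Slc17a6 (5.15, 37.9% against 1.3%), the long non-coding RNA gene Rmst (4.58, 74.8% against 8.4%) and the transcription factor gene Onecut2 (4.53, 32.1% against 1.9%) in the authors' deposited table. It also held the transcription factor gene Dach1 (3.74, 75.5% against 12.2%) and the µ-opioid receptor gene Oprm1 (3.18, 49.3% against 8.0%) in the authors' deposited table. Cluster 21 listed 1 of 5 subcortical glutamatergic markers (Slc17a6), 1 interneuron marker (Pvalb, 12.9% against 0.6%) and 1 oligodendrocyte precursor marker (C1ql1, 17.9% against 0.9%) in the authors' deposited table, and is left unnamed. By fold Fam19a1 stood at place 35 of 50 in cluster 21, but by detection gap at place 7.

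Broad cluster 17 was the single cluster that listed both genes. Fam19a2 had a log2 fold change of 2.98 there, with detection of 96.8% against 30.5%, in the authors' deposited table. Fam19a1 had 1.80, with 97.0% against 36.7%, in the authors' deposited table. The detection gap was 66.3 points for Fam19a2 and 60.3 for Fam19a1. Detection inside was thus alike for both genes, while the fold change was 1.18 higher on the log2 scale for Fam19a2. Cluster 17 listed 3 of 9 cortical excitatory neuron markers and is called cortical excitatory neuron-like: Neurod2 (4.16, 27.8% against 1.8%), Neurod6 (3.84, 29.0% against 2.1%) and Slc17a7 (2.98, 45% against 6.7%) in the authors' deposited table. It listed 1 of 10 astrocyte markers, the bicarbonate transporter gene Slc4a4 (2.30, 59.4% against 14.4%), in the authors' deposited table. Further leading genes were Igfbp4, which encodes a binding protein of insulin-like growth factors (5.12, 50.5% against 2.2%), Gm20754 (4.72, 96.4% against 11.9%) and the phospholipase C gene Plch2 (4.65, 30.8% against 1.6%) in the authors' deposited table. The transcription factor genes Zbtb20 (3.26, 97.8% against 41.7%) and Nfia (2.11, 82.2% against 31.1%) were also listed in the authors' deposited table, Nfia below the list's median of 2.96.

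Equal detection went with unequal folds. Fam19a1 was detected in 97.0% of nuclei both in broad cluster 5 and in broad cluster 17 in the authors' deposited table, yet its log2 fold change was 1.90 higher in cluster 5. The genes listed for cluster 17 had a median detection inside of 83.2%, against 48.7% for the list of cluster 5, in the authors' deposited table. Whether nuclei of cluster 17 were read more deeply was not tested, because the depth per nucleus is unknown.

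**Figure D3:**
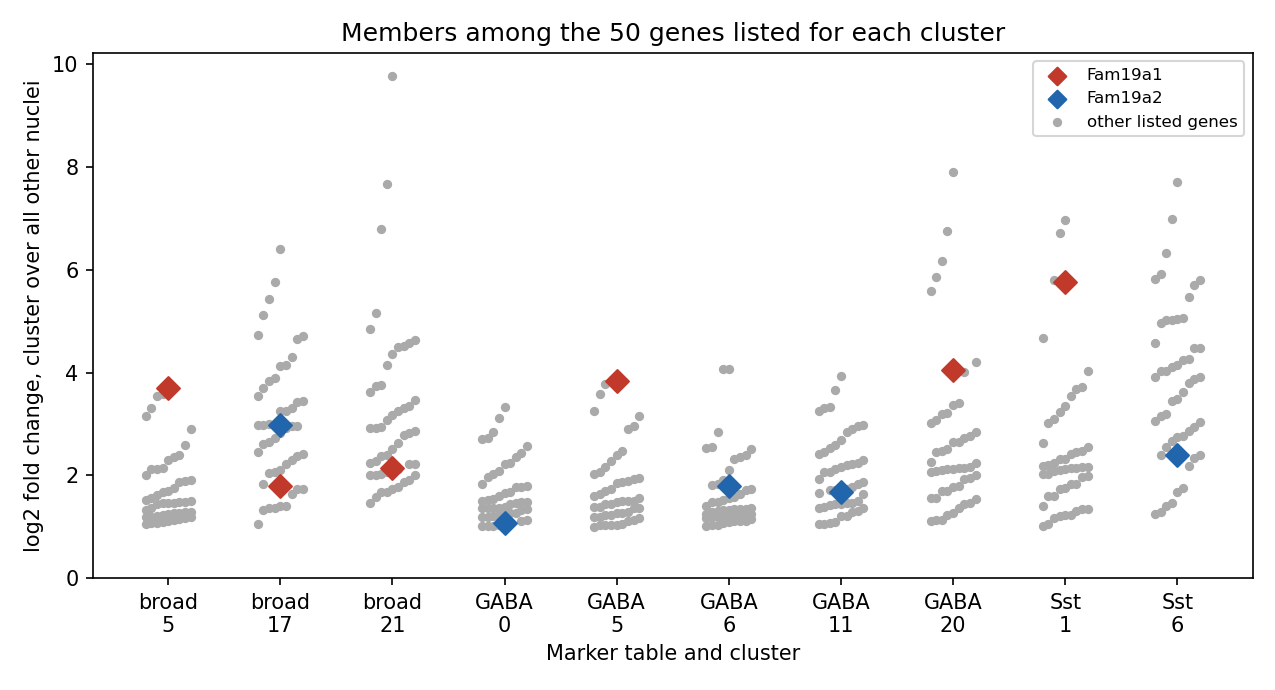
The log2 fold change of each of the 50 genes listed for the 10 clusters that name a member (grey), with Fam19a1 (red) and Fam19a2 (blue) as diamonds. Fam19a1 stands near the top in broad 5, GABA 5 and Sst 1, and Fam19a2 between places 14 and 44 of 50 in its clusters.

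Among inhibitory neurons Fam19a2 was listed for GABA subclusters 6, 11 and 0, and at lower folds. In subcluster 6 its log2 fold change was 1.80, with 66.8% against 26.1%, in the authors' deposited table, placed 4 by p-value order and 2 by detection gap (40.7 points) among the 50. This subcluster had the transcription factor gene Nkx2-1 (4.08, 9.9% against 0.6%), the axon guidance cue gene Slit2 (2.55, 69.4% against 17.7%), the phosphodiesterase gene Pde3a (1.73, 36.7% against 13.0%), the neurexin ligand gene Nxph1 (1.52, 92.0% against 56.8%) and the adhesion gene Cntnap2 (1.48, 99.8% against 95.2%) in the authors' deposited table. Of 13 interneuron markers it listed 2, Nxph1 and Kit (1.82, 5.2% against 1.2%), in the authors' deposited table, and it is left unnamed. Low-detection genes of the same list were Tshz2 (2.85, 20.3% against 4.2%) and the neuropeptide Y receptor gene Npy2r (4.07, 1.1% against 0.1%) in the authors' deposited table.

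In GABA subcluster 11 the log2 fold change of Fam19a2 was 1.68, with 53.8% against 27.3%, in the authors' deposited table. It took place 47 of 50 by p-value order there, close to the end of the list. Leading genes of subcluster 11, by the same rule, were the glypican gene Gpc3 (2.99, 69.2% against 16.3%), the phosphodiesterase gene Pde1c (2.96, 73.3% against 21.9%), Fgf13 (2.91, 66.1% against 14.3%) and Dach1 (2.54, 43.4% against 11.3%), with the tachykinin receptor gene Tacr1 (3.66) in 20.7% against 2.0%, in the authors' deposited table. Subclusters 0 and 11 listed 0 genes of any cell type list and are left unnamed. In subcluster 0 the log2 fold change of Fam19a2 was 1.07, with 44.2% against 26.4%, in the authors' deposited table, barely above the smallest value of 1.00 in that table. By the same rule subcluster 0 was led by Cpa6, a carboxypeptidase gene (2.84, 76.9% against 18.0%), Prlr, the receptor gene of prolactin (2.25, 40.3% against 10.2%), the collagen gene Col6a3 (1.78, 37.9% against 12.1%) and Hs6st3 (1.78, 75.2% against 45.8%), in the authors' deposited table. It also had the nociceptin precursor gene Pnoc (1.5, 18.0% against 7.0%) in the authors' deposited table. By detection gap Fam19a2 took place 18 in subcluster 0 and 35 in subcluster 11.

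In the Sst table Fam19a2 was listed for subcluster 6, at a log2 fold change of 2.40 and detection of 59.8% against 19.1% in the authors' deposited table. With 5 of 13 interneuron markers (Npy, Maf, Lhx6, Sox6, Nxph1) this subcluster is called interneuron-like. Its leading genes were those of neuropeptide Y, Npy (7.70, 26.5% against 0.8%), Moxd1 (6.99, 25.6% against 0.3%), the transcription factor genes Maf (6.33, 37.8% against 0.8%) and Sox6 (5.07, 67.6% against 5.7%), and the peptide gene Cort (5.91, 18.2% against 0.4%) in the authors' deposited table. The δ-opioid receptor gene Oprd1 (4.24) was found in 16.1% against 0.9% in the authors' deposited table.

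Clusters with nearly the same list in 2 tables did not always share Fam19a2. Sst subcluster 6 shared 42 of 50 genes with GABA subcluster 17, with a median difference of 0 points in detection, but Fam19a2 was not listed for GABA subcluster 17. If its detection of 59.8% held there too, the other GABA nuclei would have 27.9%, a gap of 31.9 points, against 40.7 points in the Sst table, while the median gap of the genes listed for GABA subcluster 17 was 26.4 points. GABA subcluster 11 and broad cluster 11 had 44 shared genes: at 53.8% inside, the other nuclei of the broad table would have 30.9%, against 27.3% in the GABA table, and Fam19a2 was not listed there. GABA subcluster 0 and broad cluster 2 shared 37 genes, and at 44.2% inside the other nuclei of the broad table would have 30.6%, against 26.4% in the GABA table; broad cluster 2 did not list Fam19a2. That the matched clusters hold the same nuclei is an assumption of these values. A gene missing from a list of 50 is not shown to be equal inside and outside that cluster.

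Most nuclei with either gene lay outside the clusters that list it. How large each cluster was, as a share of nuclei, was solved from the detection values of genes listed more than once, and this also gave detection over all nuclei. Fam19a1 was detected in 37.7% of all nuclei, 34.1% of GABA nuclei and 28.0% of Sst nuclei, and Fam19a2 in 31.7%, 28.4% and 21.2%. The listing clusters gave nearly the same overall value, for Fam19a1 in the broad table between 37.70% and 37.75%, which the solution itself requires of them.

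Broad cluster 5 held 14.3% of all nuclei with detected Fam19a1 (14.3% to 14.4% from rounding of the gene's own percentages), from 5.57% of nuclei. Clusters 17 and 21 held 4.49% and 3.34%, from 1.75% and 1.46% of nuclei. The remaining 77.9% of nuclei with Fam19a1 lay in the 22 broad clusters that do not list it, where its mean detection was 32.2%. Among GABA nuclei, subcluster 5 held 18.6% of those with Fam19a1, from 6.59% of nuclei, and subcluster 20 held 2.13%, from 0.725%. Mean detection of Fam19a1 in the other 20 GABA subclusters was 29.2%. Sst subcluster 1 held 8.29% of the Sst nuclei with Fam19a1, from 2.32% of nuclei.

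For Fam19a2 the 3 listing GABA subclusters held 38.3% of the GABA nuclei in which it was detected, from 20.8% of nuclei. Subcluster 0 held 17.1%, subcluster 6 held 13.4% and subcluster 11 held 7.77%, from 11%, 5.71% and 4.10% of nuclei. Although subcluster 0 had the lowest detection inside, it held the most of the 3 by its size. The other 19 subclusters had a mean detection of 22.1%. Broad cluster 17 held 5.35% of all nuclei with Fam19a2, and Sst subcluster 6 held 14.6% of the Sst nuclei with it, from 5.19% of nuclei.

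**Figure D4:**
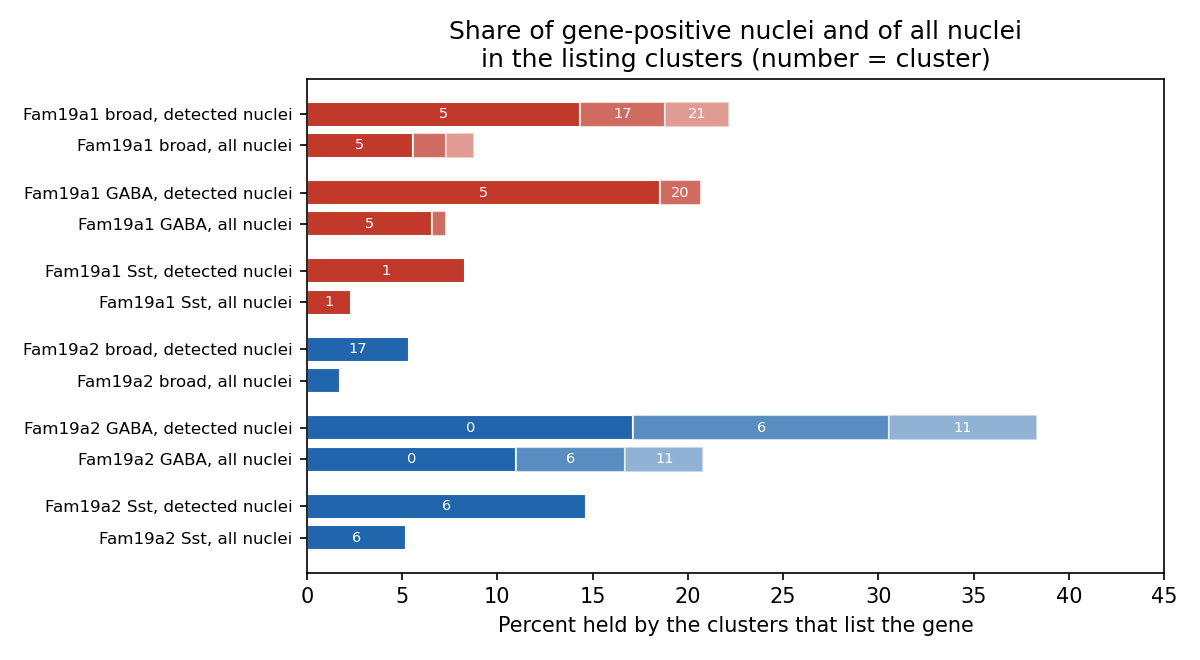
Percentage of gene-positive nuclei held by the clusters that list the gene, above the percentage of all nuclei of the table that those clusters make up; segments are clusters, with their number. The GABA subclusters listing Fam19a2 hold 38.3% of its positive nuclei and those listing Fam19a1 hold 20.7%.

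The gene whose listing was most like that of Fam19a1 was Ntng1, which encodes netrin-G1, an adhesion protein of axons. Likeness was the Jaccard index of the listing clusters, the number of clusters shared over the number listing either gene. In the GABA table Ntng1 and Thsd7b were listed for the same 2 subclusters as Fam19a1, 5 and 20, an index of 1 over 22 subclusters. Over the 3 tables Ntng1 was listed for 6 clusters, and 5 of these were among the 6 that list Fam19a1. Its log2 fold changes were 1.47 in broad cluster 5, 3.62 in broad cluster 21, 1.85 in GABA subcluster 5, 1.27 in GABA subcluster 20 and 1.84 in Sst subcluster 1 in the authors' deposited table. Detection of Ntng1 inside lay between 70.9% and 99.3% in these 5 in the authors' deposited table. It was not listed for broad cluster 17, and the authors' deposited table also had it, without Fam19a1, for broad cluster 18 (2.36, 89.1% against 32.5%). Thsd7b was listed for 5 clusters, 4 of them with Fam19a1. Some of these clusters have nearly the same list in 2 tables, and an index over so few clusters is a description only.

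In the broad table the highest index with Fam19a1 was that of the adhesion gene Il1rapl1 (0.667), listed for clusters 17 and 21, followed by Ntng1 and Lrp1b (0.5 each), Hs3st4 and the potassium channel gene Kcnd2 (0.4 each). In the GABA table the places after Ntng1 and Thsd7b went to Egfem1 (0.4), the transcription factor gene Pbx3 and Zbtb20 (0.333 each). Genes listed with Fam19a1 at least once in each of the 3 tables numbered 8: Alcam, Asic2, Egfem1, Kcnq3, Ntng1, Stac, Thsd7b and Zbtb20. Several were often listed without it: Fam19a1 was in 4 of the 11 lists naming Egfem1 and 3 of the 9 naming Asic2. For Stac it was 3 of 7, for Zbtb20 3 of 6 and for Kcnq3 3 of 4. The adhesion gene Alcam was listed for 3 clusters in all, each of them with Fam19a1. Its detection there was 89.8% against 40.2% in broad cluster 21, 89.9% against 38.1% in GABA subcluster 20 and 89.4% against 39.4% in Sst subcluster 1 in the authors' deposited table. GABA subcluster 20 and Sst subcluster 1 have nearly the same list and are not counted as separate results here either.

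For Fam19a2 the most alike gene of the GABA table was Tiam1, which encodes an activator of the small GTPase Rac. The authors' deposited table had it for subclusters 0 (1.04, 35.3% against 18.9%) and 11 (1.83, 51.9% against 19.4%), an index of 0.667. The adhesion gene Cntnap5a followed at 0.5, listed for subclusters 6 and 11 and also 4, then the heparan sulphate enzyme gene Hs6st3 at 0.4, and Cpa6 and Gpc3 at 0.25 each. The transcription factor gene Tcf4 was the 1 gene listed with Fam19a2 in each table, at log2 fold changes of 2.05 in broad cluster 17, 1.01 in GABA subcluster 0 and 4.03 in Sst subcluster 6 in the authors' deposited table. Tcf4 was listed for 9 clusters in all, and only 3 of them list Fam19a2. Its largest fold in the GABA table, 2.96, was in subcluster 19, which lists neither member. Counted over all lists, Fam19a1 had 194 genes beside it at least once, Fam19a2 had 223, and 83 genes stood beside each. The list of broad cluster 17, which names both, gives 48 of these by itself.

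GABA subclusters 5 and 11, which list different family members, had at least as many genes in common as any other pair in the GABA table. They shared 15 of 50 genes, the highest number among the 231 pairs of GABA subclusters, where the median was 2. The matching broad clusters 5 and 11 shared 17, place 3 among 300 pairs. Detection inside was lower in subcluster 5 than in subcluster 11 for 14 of the 15 shared genes, with a median difference of -7.4 points. The log2 fold change was higher in subcluster 11 for 10 of the 15. Whether nuclei of subcluster 11 were read more deeply was not tested, because the depth per nucleus is unknown. The kinase regulator gene Mob3b was detected in 41.1% of nuclei of subcluster 5 and 69.0% of subcluster 11, and Stac in 43.3% of subcluster 5 and 65.1% of subcluster 11, in the authors' deposited table. The kinase gene Prkca was detected in 81.5% of subcluster 5 and 91.8% of subcluster 11, and the calcium-binding protein gene Calb1 in 13.6% of subcluster 5 and 23.3% of subcluster 11, in the authors' deposited table. In detection only Pld5 went the other way, with 92.5% in subcluster 5 and 84.4% in subcluster 11, in the authors' deposited table. The level of Fam19a1 in subcluster 11 and of Fam19a2 in subcluster 5 is not given by these lists.

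**Figure D5:**
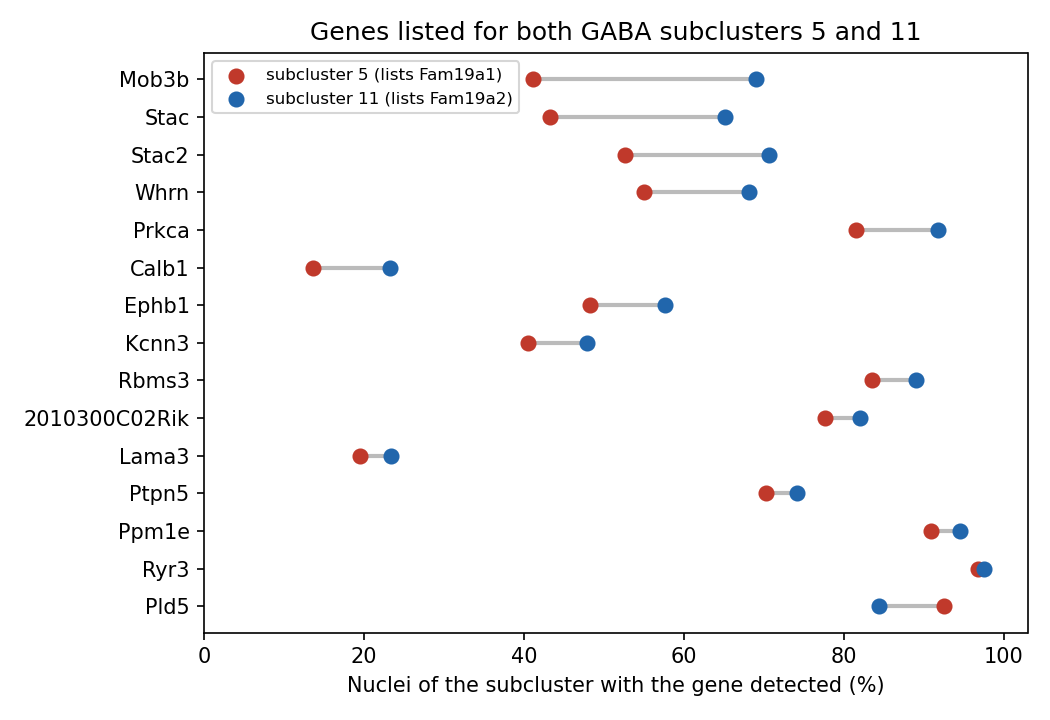
Percentage of nuclei with each of the 15 genes listed for both GABA subcluster 5 (red, lists Fam19a1) and GABA subcluster 11 (blue, lists Fam19a2) detected. Subcluster 5 lies below subcluster 11 for 14 genes, from Mob3b at the top, and above it for Pld5.

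The other genes of the family were not listed. Of the 5 Fam19a genes, 2 were listed in each table, and Fam19a3, Fam19a4 and Fam19a5 in none. Gpr1, the gene of the reported Fam19a1 receptor, was listed for 0 clusters. Of all features, 4.05% were listed for at least 1 broad cluster, 3.52% for at least 1 GABA subcluster and 1.95% for at least 1 Sst subcluster. Most features were thus not listed, and nothing is read from these absences.

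Of 17 genes for other ligands of neurexins, 5 were listed in the broad, 3 in the GABA and 2 in the Sst table. Of all features, 4.05%, 3.52% and 1.95% were listed for at least 1 cluster of the broad, GABA and Sst tables. Counts of genes listed at all are to be read against these shares. Of all genes listed in the broad, GABA and Sst tables, 16.9%, 13.5% and 13.9% stood beside Fam19a1, and 5.88%, 20.4% and 13.9% beside Fam19a2. Counts of genes beside a member are to be read against those shares. Neurexin ligand genes beside Fam19a1 numbered 0. With Fam19a2 there were Nxph1 in GABA subcluster 6 and, in Sst subcluster 6, Nxph1 (1.47, 97.6% against 61.3%) and Nxph2 (4.11, 13.7% against 1.0%) in the authors' deposited table. Nxph1 was listed for 11 clusters in all, 9 of them naming neither gene. Among 12 chemokine genes, Cxcl14 was the 1 listed in each table, for clusters that list neither member, and of 17 chemokine receptor genes 0 were listed. Of 22 neuropeptide genes, 13 were listed in the broad, 13 in the GABA and 6 in the Sst table. Of those 13 broad genes, 0 stood beside Fam19a1 and 0 beside Fam19a2. Cartpt, Nts and Sst were listed with Fam19a1 in GABA subcluster 20 and Sst subcluster 1. These subclusters have nearly the same list and are not counted as separate results. Pnoc (GABA), Cort and Npy (both Sst) were listed with Fam19a2. Of 36 neuropeptide receptor genes, 8 were listed in the broad, 12 in the GABA and 3 in the Sst table. Crhr2 (broad and GABA) and Oprm1 (broad) were listed with Fam19a1. Npy2r, Prlr and Tacr1 (GABA) and Oprd1 (Sst) were listed with Fam19a2. Of 45 forebrain transcription factor genes, 9 were listed with Fam19a1 and 4 with Fam19a2 in the broad table, out of 30 listed there at all. The 4 are also among the 9, because cluster 17 lists both members. In the GABA table the counts were 4 with Fam19a1, among them Dach2 and Lhx2, and 5 with Fam19a2, among them Dach1 and Nkx2-1, out of 24. In the Sst table they were 2 with Fam19a1 and 3 with Fam19a2, out of 10.

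Fam19a1 and Fam19a2 are long also among the listed genes. Of 820 genes with a position in the broad lists, 98 had a longer span than Fam19a1 and 123 a longer one than Fam19a2. The median span was 133 kb over all genes of the broad table, 205 kb over those listed with Fam19a1 and 307 kb over the 47 with a position listed with Fam19a2. The broad value for Fam19a2 rests on the list of cluster 17 alone, which also counts toward that of Fam19a1. In the GABA table the medians were closer, at 149 kb with Fam19a1, 143 kb with Fam19a2 and 154 kb over all listed genes. In the Sst table they were 202 kb with Fam19a1, 163 kb with Fam19a2 and 178 kb over all listed genes. How far gene length contributes to detection in nuclei was not tested.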

How the data were processed

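Per the submitters' processing notes the authors used Seurat 4 and mouse build mm10; aligner, filters on nuclei, treatment of doublets, clustering settings and test were not given in the sources used here. What the authors deposited is, per the file headers, an average log2 fold change, detection as a fraction of nuclei with 3 decimals (printed here as a percentage) and p-values, with no column per library, so the libraries, whose batch labels share the year 2018 and differ in a library code, cannot be told apart. Rows of each cluster stand in order of the deposited p-value; the deposited adjusted p-value equals it times 20574 (broad), 20044 (GABA) or 18109 (Sst), taken here as the number of features. All 50 rows of each cluster had log2 fold changes of 1 or more, and 0 rows had an adjusted p of 0.05 or more.

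Overall detection of a gene must be the same from every cluster listing it, which gives linear equations in the clusters' sizes. A least-squares solution used 286, 258 and 42 genes, with a residual of about 0.02 points in each table. Sums of the shares were 100%, 100.8% and 100.1%. Ranges given with a share cover rounding only, and no depth was known from which to compute counting error.

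Named were all rows of both genes, in each listing cluster the 4 other genes of largest fold with detection of at least 25%, genes of fixed groups, the 5 most alike genes per table and those listed with a member in all 3 tables; where many qualified, some are given in counts only, and some results are not reported here. Mob3b, Stac, Prkca and Calb1 were picked to illustrate after their values were seen. Members and lists were chosen with earlier results of these data known. Positions are 1-based on GRCm38, the assembly of mm10; symbols were matched to GENCODE M21 for 98.3%, 98.6% and 98.6% of listed genes. Computation used numpy 2.4.6 and scipy 1.17.1 in Python 3.11.15, tables pandas 2.3.3, and plots matplotlib 3.10.9. Alternatives were other thresholds on adjusted p, fold and detection gap, other rankings, 3 other solutions for the shares and another measure of likeness.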

Additional observations from a re-analysis of the deposited data

How the results depend on the processing

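The number of rows listing each gene stayed the same in each table with no threshold on adjusted p and with 0.001. With a detection gap of at least 25 points, the GABA table kept 2 of the 3 rows of Fam19a2, and the other counts stayed the same. When the fold had to reach 2 on the log2 scale, the GABA table kept 0 of the 3 rows of Fam19a2. The broad table then kept 2 of the 3 rows of Fam19a1. The row lost was that of cluster 17 (1.80), so the single cluster listing both genes no longer did so. Of 17 shares held by clusters and means over non-listing clusters, 5 to 7 moved by more than rounding under each other solution. Sizes kept non-negative and summing to 1 gave 18.46% and 2.049% of Fam19a1-positive nuclei for GABA subclusters 5 and 20, 17.08%, 13.33% and 7.719% of Fam19a2-positive nuclei for GABA subclusters 0, 6 and 11, and 8.261% of Fam19a1-positive nuclei for Sst subcluster 1. Sizes from genes detected in at least 25% inside gave 4.512% and 3.361% for Fam19a1 in broad clusters 17 and 21, 5.369% for Fam19a2 in broad cluster 17, 18.49% and 2.056% for Fam19a1 in GABA subclusters 5 and 20, and 13.37% and 7.737% for Fam19a2 in GABA subclusters 6 and 11. Sizes solved without both genes gave 14.27%, 4.502% and 3.336% for Fam19a1 in broad clusters 5, 17 and 21, 2.143% for Fam19a1 in GABA subcluster 20 and 13.46% for Fam19a2 in GABA subcluster 6. The cause of these moves was not tested. Places within a list changed in 10 of 11 rows when ranked by detection gap in place of fold, and in 10 of 11 among genes detected in at least 25% of nuclei. No paired analysis was possible because the tables pool the 3 libraries, and for the same reason no library could be left out. Counting error is unknown, since neither the number of nuclei nor their depth is given.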
